A study of Mus musculus with 3 samples.

Results

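The genes described here write, read and remove DNA methylation: the methyltransferases Dnmt1, Dnmt3a and Dnmt3b, the dioxygenases Tet1, Tet2 and Tet3, the maintenance cofactor Uhrf1, the methyl-CpG reader Mbd2 and the repair glycosylase Mbd4. They were chosen by name, as the array probes whose RefSeq transcript belongs to 1 of these 9 genes, out of 22911 genes named on the array. They have 17 of the 56605 non-control probes. Of these, 16 were well above background on at least 1 array and were among the 32889 probes tested.

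Total RNA of 3 splenic tumours from male mice aged 10 weeks was labelled with Cy3 and hybridised to 1 mouse expression array each. All 3 mice carried p53 haploinsufficiency, the loss of 1 copy of Trp53. The p53+/- group held 1 tumour, called the p53 tumour, and the LSD1 x p53+/- group held 2, numbered 2 and 3 in the labels and called LSD1 tumour 2 and LSD1 tumour 3. LSD1, the product of Kdm1a, removes methyl groups from histones. Which change at LSD1 the genotype carries, and which promoter or cell type would drive it, is not given in the labels. Nor do they say whether the numbers name mice or lines. The tissue label reads tumour while the growth protocol speaks of cells isolated from spleen, and no agent was given.

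DNA methylation is copied after each round of replication. UHRF1 binds hemimethylated CpG sites behind the fork and recruits DNMT1, which methylates the daughter strand. DNMT3A and DNMT3B set methylation on unmethylated DNA, and TET enzymes oxidise 5-methylcytosine as a first step towards its removal. MBD2 binds methylated CpG sites and recruits the NuRD corepressor complex, and MBD4 removes thymine that arises by deamination of methylated cytosine. In blood cells, DNMT3A and TET2 are recurrently mutated in leukaemia, and UHRF1 and DNMT1 are abundant in cycling cells.

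Proliferation-linked genes often carry E2F sites near their start, so the windows from 250 bases before to 50 bases after each gene's start were read from RefSeq (GRCm38.p6) and searched on both strands for TTCCCGC as well as TTGGCGC together with TTCGCGC and finally also TTGCCGC, here called E2F-type letters. Windows were searched for 8 of the 9 genes, and none for Mbd2. Member windows on 1 chromosome were left out, while the shares over all genes and windows keep that chromosome. These letters occurred in both Uhrf1 windows, in 1 of 3 Dnmt1 windows (3 matches) and in the Mbd4 window. They occurred in no window of Dnmt3a, Dnmt3b, Tet1, Tet2 or Tet3. By gene that is 3 of 8, against 10.9% of the 27025 genes in the table, and 9.57% of all 32851 windows held them. Of 14 S phase genes with a window, 8 held them. The matches describe letters in a window and not bound sites. The windows of Uhrf1 and the 1 Dnmt1 window with matches, of genes higher in both LSD1 tumours, and the window of Dnmt3b, higher in 1 of them, are printed 5′ to 3′ on the gene's strand. The other 2 Dnmt1 windows, with no match, are not printed. Capitals mark the E2F-type letters on either strand.
Uhrf1, chr17:56303087-56303386, plus strand: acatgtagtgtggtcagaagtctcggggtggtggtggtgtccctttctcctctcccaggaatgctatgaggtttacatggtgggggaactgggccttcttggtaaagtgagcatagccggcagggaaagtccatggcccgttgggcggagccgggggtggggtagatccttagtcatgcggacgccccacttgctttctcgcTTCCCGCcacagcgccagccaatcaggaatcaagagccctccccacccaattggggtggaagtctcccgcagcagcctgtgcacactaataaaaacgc
Uhrf1, chr17:56304063-56304362, plus strand: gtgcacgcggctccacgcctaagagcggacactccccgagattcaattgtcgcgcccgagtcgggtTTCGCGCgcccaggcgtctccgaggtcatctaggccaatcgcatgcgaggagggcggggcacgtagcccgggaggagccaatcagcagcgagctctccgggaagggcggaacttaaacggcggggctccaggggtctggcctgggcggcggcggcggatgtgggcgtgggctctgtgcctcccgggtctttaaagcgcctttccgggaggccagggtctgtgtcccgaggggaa
Dnmt1, chr9:20952574-20952873, minus strand: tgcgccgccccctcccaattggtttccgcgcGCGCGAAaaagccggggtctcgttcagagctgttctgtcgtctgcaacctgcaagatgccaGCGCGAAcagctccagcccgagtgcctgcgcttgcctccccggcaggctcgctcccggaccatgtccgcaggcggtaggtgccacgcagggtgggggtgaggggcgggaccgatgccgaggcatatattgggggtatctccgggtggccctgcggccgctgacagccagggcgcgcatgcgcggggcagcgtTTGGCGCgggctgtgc
Dnmt3b, chr2:153649199-153649498, plus strand: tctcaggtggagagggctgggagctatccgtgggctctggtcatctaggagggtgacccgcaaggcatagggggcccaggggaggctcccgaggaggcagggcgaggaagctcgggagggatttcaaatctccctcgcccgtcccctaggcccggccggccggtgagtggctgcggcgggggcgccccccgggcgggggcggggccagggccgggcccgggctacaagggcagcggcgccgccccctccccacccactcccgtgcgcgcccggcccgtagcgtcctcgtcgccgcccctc

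Both Uhrf1 windows also held CCAAT on either strand, as did 37.4% of all windows. The GC box letters GGGCGG occurred 4 times in the Dnmt3b window and in 35.7% of all windows. The windows also differed in CpG content, the substrate of these enzymes. The Tet2 window held 57 CpG dinucleotides, more than 99.85% of all windows in the table. The Dnmt3a windows held 46, 47 and 18, that of Dnmt3b 30, that of Mbd4 25, that of Tet3 22 and that of Tet1 17. The Uhrf1 windows held 12 and 33 and the Dnmt1 windows 33, 12 and 2. The median over all windows was 7.

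Values below are signals divided by the array's own 75th percentile, so that 1 is the level of that percentile. Differences are log2 of the LSD1 tumour minus log2 of the p53 tumour. Each tumour had 1 array. The only measured error within an array was the SD between copies of the 300 probes spotted 10 times each. Its median was 0.039 to 0.041 log2 units for the brighter of these and 0.16 to 0.19 for the 6 dim ones well above background. Levels of different probes are not compared, since probes differ in efficiency. Both LSD1 differences share the p53 array, and the p53 tumour and LSD1 tumour 3 were on slide 1 while LSD1 tumour 2 was on slide 2. A difference of LSD1 tumour 2 from either of the others therefore cannot be told apart from the slide. In bulk tumour RNA, fewer cells of a type and less RNA per cell cannot be told apart.

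limma called 0 of the 32889 probes between the genotypes at an adjusted p of 0.05, which is 0% of them, and so 0 of the 16 member probes. At an unadjusted p under 0.05 it gave 1491 probes and no member probe. The members' adjusted p ran from 0.892 to 0.992 (limma, Benjamini-Hochberg over all probes). With 1 array against 2, only 1 degree of freedom is left for the spread. The fit takes the lone p53 tumour to vary like the LSD1 tumours, and the smallest exact permutation p over 3 arrays is 0.333. The SEs and p-values draw on each probe's spread between the 2 LSD1 tumours, which were on different slides. They also draw on a spread pooled over all probes tested, which counts for 2.34 degrees of freedom. The number of arrays limits the precision. The values below are therefore given as sizes.

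Across the members, Uhrf1 stood at least 2-fold above the p53 tumour in both LSD1 tumours, on both of its probes. No other member reached 2-fold in both. A difference of at least 2-fold upward in both tumours was found for 2 of 16 member probes, against 3.63% of all probes, and these 2 probes are of 1 gene. A 2-fold lower signal in both was found for 0 of 16, against 7.31%. By gene, 1 of 9 was 2-fold higher in both, against 3.48% of the 15253 genes tested by their leading probe, the one with the highest mean log2 signal. Without a size threshold, 6 member probes were higher in both tumours, 3 lower in both and 7 higher in one and lower in the other. Over all probes tested the shares were 36.6%, 32.2% and 31.2%. The median difference of the member probes was 0.60 in LSD1 tumour 2 and 0.02 in LSD1 tumour 3, against 0.02 and 0.07 for all probes.

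**Figure D1:**
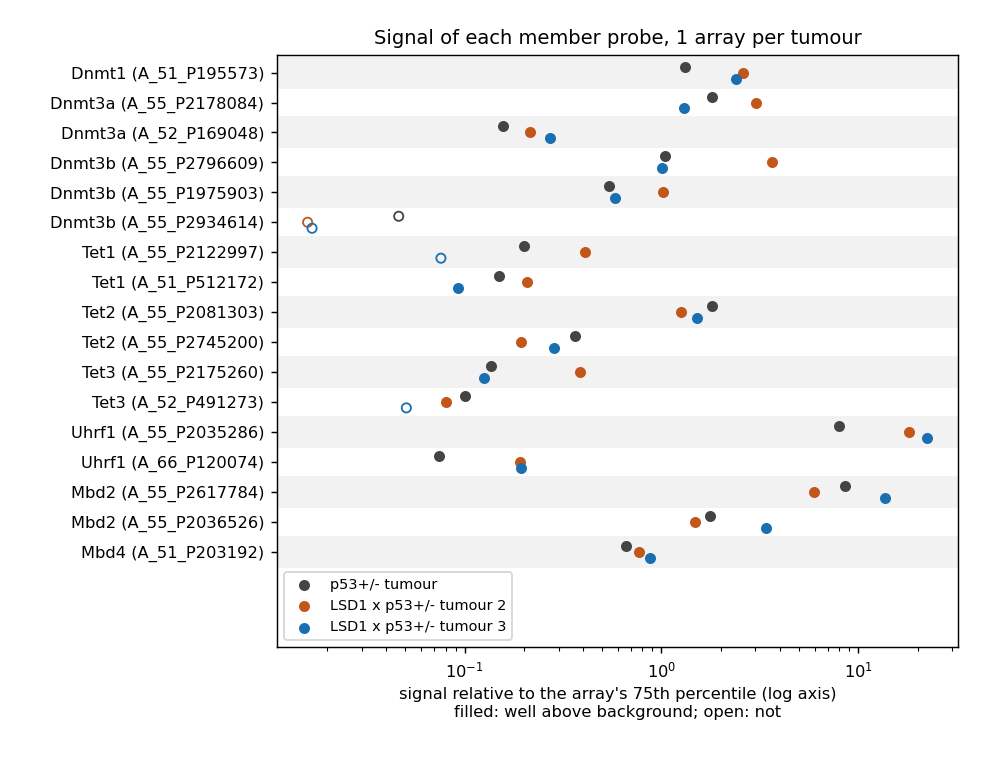
Signal of each of the 17 member probes relative to its array's 75th percentile, on a log axis, with 1 point per tumour (grey, p53 tumour; orange, LSD1 tumour 2; blue, LSD1 tumour 3) and open points where the probe was not well above background. The grey points of both Uhrf1 probes lie left of the orange and blue points, while for both tested Dnmt3b probes, both Tet1 probes and the brighter Dnmt3a probe LSD1 tumour 2 lies to the right of the other tumours.

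Uhrf1 has the brighter probe A_55_P2035286. Its signal was 7.94 in the p53 tumour, with 18.0 in LSD1 tumour 2 and 22.4 in LSD1 tumour 3. Both LSD1 tumours were higher, by 2.27-fold and 2.82-fold, and LSD1 tumour 3 was 1.24-fold above LSD1 tumour 2. The LSD1 mean was 4.33 ± 0.22 log2 units (SD, n = 2) against 2.99 in the p53 tumour, a difference of 1.34 (SE 0.51, limma adjusted p = 0.892). Only 1.59% of probes were at least as high in both tumours.

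The second Uhrf1 probe, A_66_P120074, is assigned to another transcript of the gene and was dimmer. It read 0.0740 in the p53 tumour, with 0.191 in LSD1 tumour 2 and 0.192 in LSD1 tumour 3. These are 2.58-fold and 2.60-fold above the p53 tumour, and the LSD1 tumours were level with each other within spot error. The second Uhrf1 probe and the first thus gave the same direction and a like size in both tumours. Under the alternatives the first probe ranged from 0.97 to 1.23 in LSD1 tumour 2 and from 1.05 to 1.69 in LSD1 tumour 3 (log2 difference). The dimmer one ranged from 0.67 to 1.41 and from 0.77 to 1.57. Both stayed above 0 throughout. The dimmer probe fell under 2-fold with normexp in both tumours, and the brighter one in LSD1 tumour 2 in the authors' value table and with quantile normalization.

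Dnmt1, the maintenance methyltransferase that UHRF1 recruits, has 1 probe, A_51_P195573. It gave 1.32 in the p53 tumour, with 2.61 in LSD1 tumour 2 and 2.40 in LSD1 tumour 3. Both LSD1 tumours were higher, by 1.97-fold and 1.82-fold, just short of 2-fold, and they were 1.09-fold apart. The LSD1 mean of 1.32 ± 0.08 log2 units (SD, n = 2) lay 0.92 above the p53 tumour (SE 0.49, limma adjusted p = 0.892). A total of 5.21% of probes were at least as high in both tumours.

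Among the de novo enzymes the LSD1 tumours parted. The brighter Dnmt3b probe, A_55_P2796609, read 1.04 in the p53 tumour, with 3.64 in LSD1 tumour 2 and 1.002 in LSD1 tumour 3. LSD1 tumour 2 alone was high, 3.49-fold above the p53 tumour and 3.63-fold above LSD1 tumour 3. The other 2 tumours differed by 1.04-fold, which is about the spot error. The LSD1 pair's SD was 1.32 log2 units, larger than the mean difference of 0.87 (SE 1.01, limma adjusted p = 0.913).

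A second Dnmt3b probe, A_55_P1975903, gave 0.541, 1.02 and 0.577 in the same order. LSD1 tumour 2 was again the highest, at 1.89-fold the p53 tumour. In LSD1 tumour 3 the 2 probes lay on either side of 0 (-0.06 and 0.09), and those signs turned with median scaling for the first and in the authors' value table for the second. The third Dnmt3b probe, A_55_P2934614, was not well above background on any array and was not tested.

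Dnmt3a, which shares the de novo role, was read by 2 probes that disagreed. The brighter, A_55_P2178084, gave 1.82 in the p53 tumour, with 3.03 in LSD1 tumour 2 and 1.30 in LSD1 tumour 3. LSD1 tumour 2 was 1.67-fold above the p53 tumour and 2.33-fold above LSD1 tumour 3, which was 1.40-fold below the p53 tumour. The dimmer probe, A_52_P169048, gave 0.157, 0.214 and 0.271, so both LSD1 tumours were higher, by 1.37-fold and 1.73-fold. Both probes are assigned to 1 transcript, and only in LSD1 tumour 2 did they share a direction.

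Among the TET enzymes, Tet1 was highest in LSD1 tumour 2 and lowest in LSD1 tumour 3 on both probes. Probe A_55_P2122997 gave 0.200 in the p53 tumour and 0.410 in LSD1 tumour 2, a 2.05-fold difference. In LSD1 tumour 3 it read 0.0758 and was not well above background there, so it was at least 2.63-fold lower than in the p53 tumour and at least 5.41-fold lower than in LSD1 tumour 2. Both bounds equal the plain ratios of background-subtracted signal, so they are not firm lower limits, and they shrink with normexp. There the differences from the p53 tumour were 0.76 in LSD1 tumour 2 and -0.69 in LSD1 tumour 3, in place of 1.04 and -1.40.

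The second Tet1 probe, A_51_P512172, gave 0.150, 0.207 and 0.0925 in the same order. That is 1.38-fold above the p53 tumour in LSD1 tumour 2 and 1.62-fold below it in LSD1 tumour 3. The directions of both Tet1 probes in each tumour held under every alternative that tested them. The mean over the LSD1 tumours was near 0 for both (-0.18 and -0.12), with SDs of 1.72 and 0.82 log2 units between the pair (n = 2).

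Tet2, the TET enzyme most often mutated in blood cancers, was lower in both LSD1 tumours on both probes. Probe A_55_P2081303 gave 1.81 in the p53 tumour, with 1.26 in LSD1 tumour 2 and 1.51 in LSD1 tumour 3, which is 1.44-fold and 1.20-fold lower. Probe A_55_P2745200 gave 0.364, 0.193 and 0.285, which is 1.89-fold and 1.28-fold lower. The p53 tumour was the highest and LSD1 tumour 2 the lowest on both, and no alternative turned these directions. In LSD1 tumours 2 and 3, 25.7% and 36.1% of all probes were at least as low as the brighter probe, and 15.1% and 33.2% at least as low as the dimmer one. The mean difference was -0.40 for the first probe (SE 0.51, limma adjusted p = 0.923) and -0.64 for the second (SE 0.56, limma adjusted p = 0.892).

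Tet3, the third oxidase, had dim and discordant probes. A_55_P2175260 gave 0.136 in the p53 tumour, with 0.384 in LSD1 tumour 2 and 0.125 in LSD1 tumour 3. LSD1 tumour 2 alone was high, at 2.83-fold the p53 tumour and 3.08-fold LSD1 tumour 3. A_52_P491273 gave 0.101, 0.0804 and 0.0506, the last not well above background. Here LSD1 tumour 2 was 1.26-fold lower than the p53 tumour and LSD1 tumour 3 at least 1.48-fold lower. That bound shrank with normexp, where the difference in LSD1 tumour 3 was -0.31 log2 units. The first probe's small difference in LSD1 tumour 3 (-0.12) turned to positive with quantile normalization and with median scaling.

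Mbd2, the reader that binds methylated CpG sites, ran the other way between the LSD1 tumours. Its brighter probe, A_55_P2617784, gave 8.58 in the p53 tumour, with 5.94 in LSD1 tumour 2 and 13.6 in LSD1 tumour 3. LSD1 tumour 2 was 1.44-fold below the p53 tumour and LSD1 tumour 3 was 1.58-fold above it. The second probe, A_55_P2036526, gave 1.76, 1.48 and 3.39, which is 1.18-fold lower and 1.93-fold higher. Between the LSD1 tumours both probes gave 2.29-fold in favour of LSD1 tumour 3.

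Mbd4, the glycosylase that acts on deaminated methyl-CpG sites, differed little between the tumours. Its probe A_51_P203192 gave 0.657 in the p53 tumour, with 0.770 in LSD1 tumour 2 and 0.870 in LSD1 tumour 3. Both LSD1 tumours were slightly higher, by 1.17-fold and 1.32-fold, with a mean difference of 0.32 (limma SE 0.50). That SE draws largely on the spread over all probes, while the SD of this probe between the LSD1 tumours was 0.12 (n = 2). A total of 39.5% and 34.1% of probes were at least as high in LSD1 tumours 2 and 3.

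**Figure D2:**
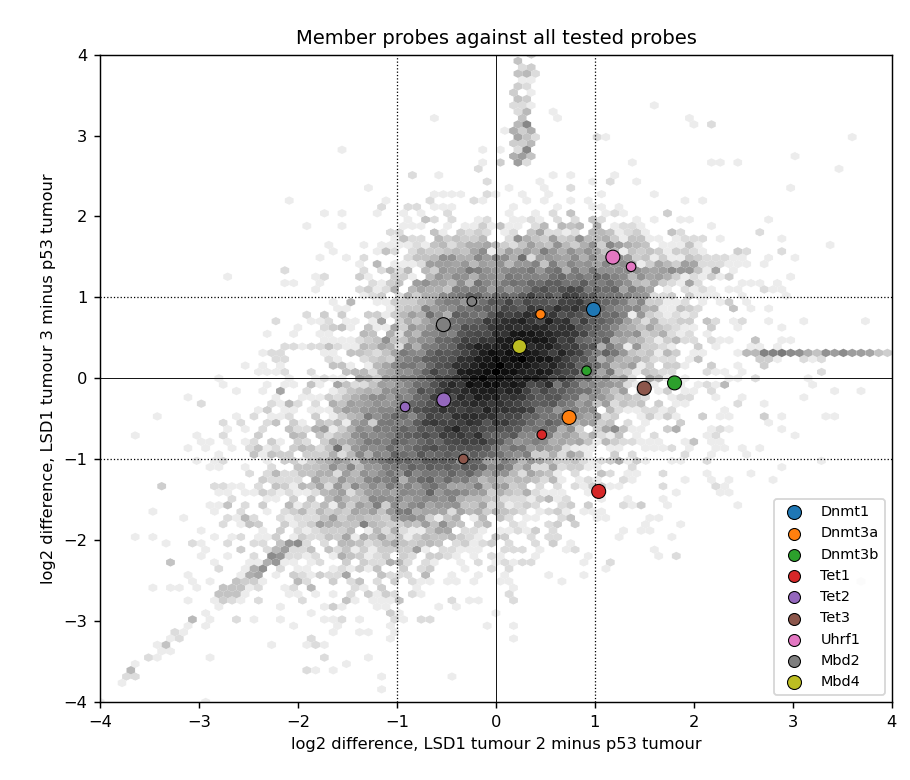
Log2 difference from the p53 tumour in LSD1 tumour 2 (x axis) and LSD1 tumour 3 (y axis) for all tested probes (grey, darker where more probes lie) and the 16 member probes (coloured, the leading probe of a gene larger), with dotted lines at 2-fold and 552 probes beyond 4 log2 units not drawn. Only the Uhrf1 points lie past 2-fold in both tumours, and the leading probes of Dnmt3b and Tet3 lie near 0 on the y axis at 1.80 and 1.50 on the x axis.

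In LSD1 tumour 2, 5 of 16 member probes were at least 2-fold above the p53 tumour (Dnmt3b, Tet1, Tet3 and both of Uhrf1), against 11.9% of all probes. None was 2-fold lower, against 13.2%. In LSD1 tumour 3, the 2 Uhrf1 probes were 2-fold higher, against 14.1%, and 1 Tet1 probe 2-fold lower, against 15.4%. By gene and leading probe, 4 of 9 were 2-fold higher in LSD1 tumour 2, against 11.7%, and 1 of 9 in LSD1 tumour 3, against 15.2%. Between the LSD1 tumours, 5 member probes were at least 2-fold lower in LSD1 tumour 3 (Dnmt3a, Dnmt3b, both of Tet1, and Tet3), against 12.4% of all probes. The 2 Mbd2 probes were at least 2-fold higher there, against 12.6%. The LSD1 tumours thus differed from each other by 2-fold or more in 7 of 16 member probes. Of 7 genes with 2 tested probes, 4 (Tet1, Tet2, Uhrf1 and Mbd2) had both probes on the same side of the p53 tumour in both LSD1 tumours, and 3 (Dnmt3a, Dnmt3b and Tet3) did not.

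**Figure D3:**
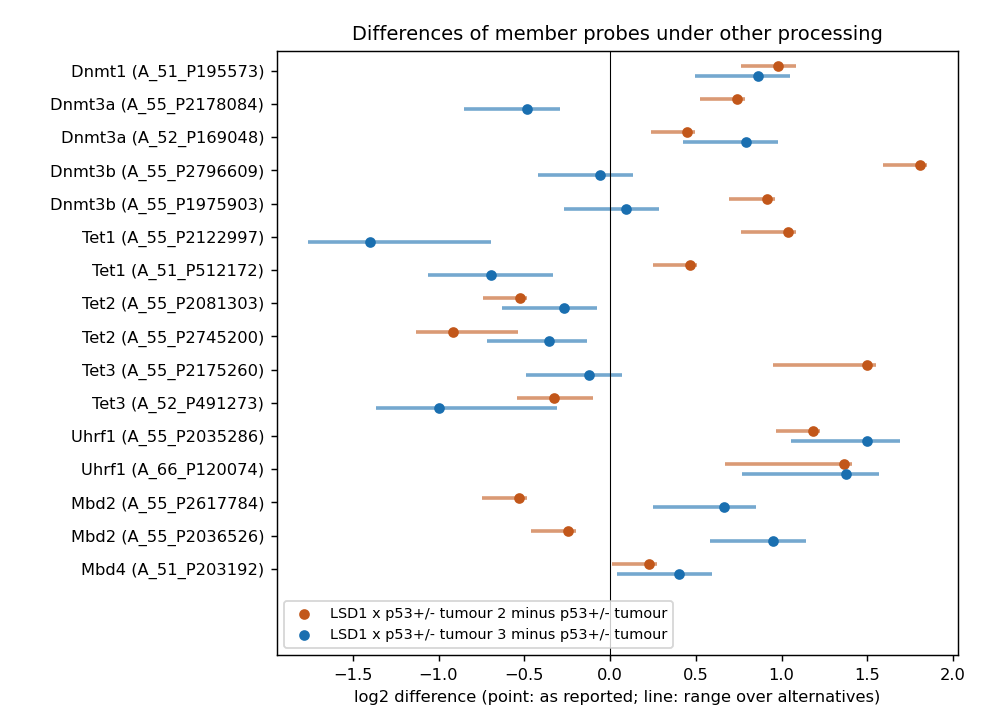
Log2 difference from the p53 tumour for the 16 tested member probes in LSD1 tumour 2 (orange) and LSD1 tumour 3 (blue), as points for the reported value and lines for the range over the alternative backgrounds, scalings, filters and the authors' value table. Of 32 differences, 29 kept their sign throughout, and the 3 whose lines cross 0 are those of both Dnmt3b probes and of Tet3 A_55_P2175260 in LSD1 tumour 3.

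The other genes of the pathway were taken from 6 lists of 49 entries, with Mbd3 in 2 of them, and 47 genes were tested. limma called 0 of them (lowest adjusted p over genes 0.966). A 2-fold higher signal in both LSD1 tumours was found for 7 of the 47, against 3.48% of genes, and a 2-fold lower one for 1, against 5.4%. Of those 7, Shmt1 alone stayed past 2-fold in both tumours under every alternative. For the counts of genes higher or lower in both without a size threshold, the shares over all genes were 38.9% and 27.8%, and the medians over all genes 0.05 in LSD1 tumour 2 and 0.16 in LSD1 tumour 3. Among the partners of maintenance methylation, 5 of 7 were higher in both (4 or 5 over the alternatives). Hells, the remodeller that maintenance methylation depends on, gave 0.348, 1.16 and 0.792 in the p53 tumour and in LSD1 tumours 2 and 3, which is 3.32-fold and 2.28-fold higher. Cdca7, which recruits HELLS, was 4.44-fold and 2.02-fold higher, and the second of these fell to 0.65 log2 units under an alternative. Pcna, the clamp at the replication fork, was 1.46-fold and 2.79-fold higher, and Lig1 1.38-fold and 2.65-fold. Uhrf2, the paralogue of Uhrf1, was 1.24-fold and 1.28-fold higher by its leading probe, while its other 2 probes gave -0.07 and 0.04 log2 units in LSD1 tumour 2 and -0.25 each in LSD1 tumour 3. Zbtb24 was 1.35-fold and 2.15-fold lower by its leading probe, and its other probe was within 1.11-fold of the p53 tumour in both.

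Dnmt3l, the catalytically inactive partner of the de novo enzymes, was not well above background in the p53 tumour and read 0.126 and 0.156 in LSD1 tumours 2 and 3. It was at least 2.37-fold and at least 2.93-fold higher there. These bounds shrank under the alternatives, where its differences fell as low as 0.66 and 0.91 log2 units. Trdmt1, a tRNA methyltransferase of the same family, was 1.23-fold and 1.24-fold higher by its leading probe, and its other probe gave -0.10 and 0.17 log2 units. The list of methyl-CpG readers and other genes of the MBD family, the group of Mbd2, had median differences of 0.02 and -0.28. Of its 8 genes, 1 was higher in both tumours (Mbd3, also among the NuRD subunits) and 4 were lower in both. Zbtb4 was 3.14-fold and 2.80-fold lower by its leading probe, while its other probe was 1.23-fold and 1.27-fold higher, so the gene's direction is uncertain.

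Among the demethylation and base excision genes, the steps after TET oxidation, 5 of 13 were higher in both, 6 lower in both, and Cxxc4 was not tested. Tdg, the glycosylase that removes the products of TET oxidation, gave 0.651, 3.01 and 1.07, so LSD1 tumour 2 was 4.62-fold and LSD1 tumour 3 1.64-fold above the p53 tumour. Its second probe was 2.10-fold and 1.39-fold higher. Apex1, the endonuclease of the next step, was 1.97-fold and 1.98-fold higher. Cxxc5, a CXXC-type CpG-binding protein, gave differences of -0.76 and -1.39 log2 units by its leading probe and -0.47 and -0.29 by its other. In the methyl donor cycle, which supplies S-adenosylmethionine, 6 of 7 were higher in both (4 to 6 over the alternatives). Shmt1 was 6.05-fold and 3.29-fold higher by its leading probe and 3.04-fold and 1.59-fold by its other, Shmt2 2.91-fold and 2.23-fold, and Ahcy, which clears the methylation product S-adenosylhomocysteine, 2.15-fold and 2.56-fold. Of the NuRD subunits, 9 of 11 were higher in both (8 or 9 over the alternatives). Their medians were 0.43 and 0.53, against 0.05 and 0.16 over all genes. Hdac2, not well above background in the p53 tumour, was at least 2.64-fold and at least 2.45-fold higher in LSD1 tumours 2 and 3. Its differences fell as low as 0.58 and 0.57 log2 units under the alternatives.

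Cycling genes were higher alongside Uhrf1 and Dnmt1. Of 16 S phase genes, which include Pcna, 13 were higher in both LSD1 tumours, against 38.9% of all genes, with medians of 0.57 and 1.52. All 12 G2 and mitosis genes were higher in both, with medians of 0.89 and 1.73, and at least 11 were so under every alternative. The summed S phase level was 7.67, 8.21 and 8.86 log2 units in the p53 tumour and LSD1 tumours 2 and 3. A summed level is the log2 of the added signals of a list's leading probes, so the brightest probes weigh most. Less the S phase median, the Uhrf1 difference was 0.61 in LSD1 tumour 2 and -0.02 in LSD1 tumour 3, and that of Dnmt1 was 0.41 and -0.65. The summed S phase level was highest in LSD1 tumour 3, as was the brighter Uhrf1 probe, while the dimmer Uhrf1 probe was level between the LSD1 tumours and Dnmt1 was 1.09-fold higher in LSD1 tumour 2. The part of cycling cells in these differences was not tested.

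**Figure D4:**
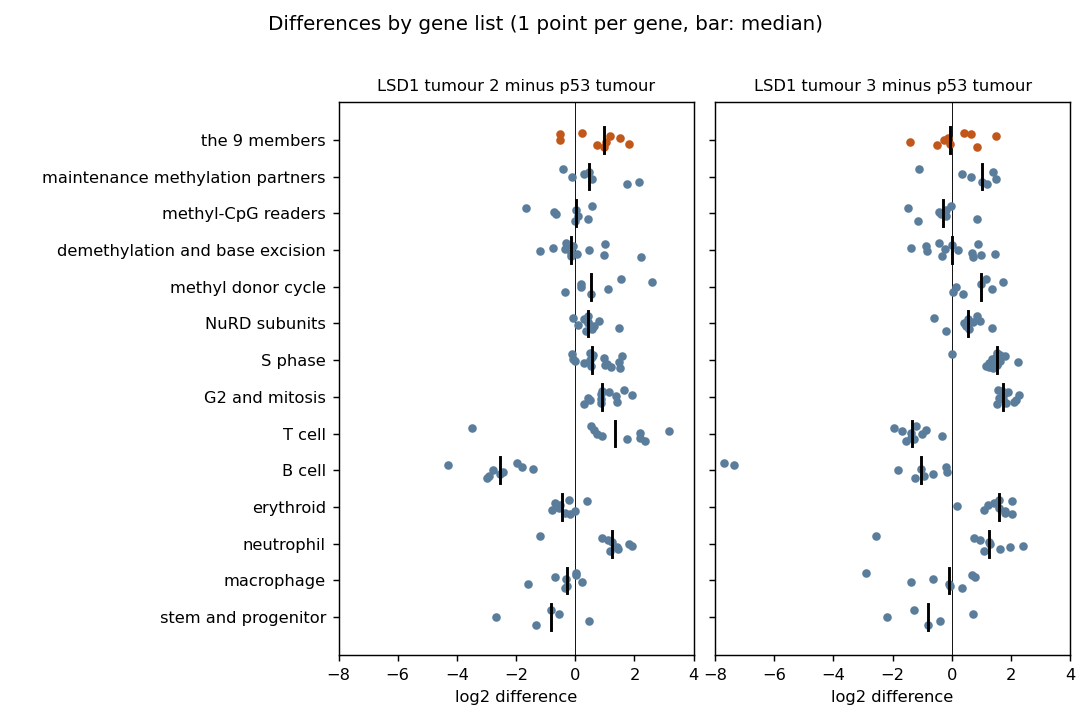
Log2 difference from the p53 tumour for the 9 member genes (orange) and 13 gene lists (blue), 1 point per gene by its leading probe and a bar at the median, for LSD1 tumour 2 on the left and LSD1 tumour 3 on the right (the list of Dnmt3l and Trdmt1 is not drawn). The T cell genes lie mostly right of 0 in LSD1 tumour 2 (median 1.33) and left of it in LSD1 tumour 3 (median -1.33), and the S phase and mitosis genes lie right of 0 in LSD1 tumour 3.

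Markers of cell types differed between the tumours too. All 10 T cell markers were above background on every array. In LSD1 tumour 2, 9 of them were higher than in the p53 tumour, and in LSD1 tumour 3 none was. The remaining marker, Cd8a, was 11.1-fold lower in LSD1 tumour 2. Over all probes, 31.2% were higher in 1 LSD1 tumour and lower in the other, in either direction, so many genes share an order with a marker list. The summed level of the T cell markers was 6.20, 7.87 and 5.05 log2 units, the same order of tumours as for both Tet1 probes and the brighter Dnmt3a probe. The leading probes of Dnmt3b and Tet3 were likewise highest in LSD1 tumour 2, while their p53 tumour and LSD1 tumour 3 had no settled order, since those small differences turned with the scaling. The dimmer Dnmt3a and Tet3 probes were not highest in LSD1 tumour 2. All 10 erythroid markers were higher in LSD1 tumour 3 and 1 was higher in LSD1 tumour 2, with summed levels of 9.57, 9.01 and 10.1, the order seen for both Mbd2 probes. B cell markers were lower in both LSD1 tumours for all 9, with medians of -2.54 and -1.03 that stayed below 0 under every alternative (summed 8.06, 5.32 and 7.15), with Fcer2a not well above background in LSD1 tumour 3. Neutrophil markers were higher in both for 8 of 9 (summed 7.19, 8.21 and 8.10). The 8 macrophage markers (summed 7.79, 7.55 and 7.38) and the 5 stem and progenitor markers (summed 2.69, 2.04 and 1.78) were above background on every array. Spleen markers of several lineages were thus present in every tumour, and their part in the members' differences was not tested.

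Ranbp1 and Magohb were among the 3 genes whose pattern over the 2 differences was most like that of Uhrf1, at Euclidean distances of 0.014 and 0.021 log2 units among 12811 other genes above background on all arrays. For Dnmt3b the nearest were Nbea, Pigx and Dzip1 (0.042 to 0.068) and for Tet3 Spred2, Gm35772 and Faah (0.014 to 0.096). No neighbours are given for Tet1, whose leading probe has only a bound in LSD1 tumour 3. A distance over 3 arrays is a description and many genes lie close to any point.

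Across the series, 51.5% to 55.6% of spots were well above background and none was saturated. Kdm1a was 1.56-fold and 1.17-fold above the p53 tumour in LSD1 tumours 2 and 3, the second a difference that reached -0.14 log2 units under an alternative, while Trp53 was 1.51-fold and 1.23-fold lower. The median difference of all probes moved with the scaling: from 0.02 and 0.07 in LSD1 tumours 2 and 3 to -0.19 and -0.29 in the authors' value table and to 0.07 and 0.26 with median scaling. Less that median, the difference of Uhrf1 A_55_P2035286 stayed between 0.96 and 1.21 in LSD1 tumour 2 and between 1.04 and 1.42 in LSD1 tumour 3, and that of Dnmt1 between 0.76 and 1.09 and between 0.58 and 0.79.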

How the data were processed

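Gene expression was measured in 3 splenic tumours (1 p53+/-, 2 LSD1 x p53+/-), 1 Agilent 1-colour array each. The authors deposited scans processed with Agilent Feature Extraction 11.5.1.1, per the submitters' processing notes. The processed signal was used, a linear intensity after background subtraction and detrending, per the file headers. The deposited flags for well above background and outlier spots were also used. A deposited value table held the same intensity times 1 factor per array (1.06, 0.779 and 0.902, matching 100% of spots within 0.1%). What the authors set these on is not given in the sources used here, and its column medians were 64.2, 54.2 and 43.5.

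Each array was scaled to the 75th percentile of its non-control spots (608, 712 and 554) and taken as log2. Outlier spots (113 to 128 per array) were left out and spots of a probe averaged. The design spoke of probes for this percentile, and the percentile over averaged probes is an alternative chosen after seeing the data. Probes were named through RefSeq accessions in a gene table of GRCm38.p6: 25126 of 47837 identifiers matched. Probe coordinates are not given, since the array was designed on mm9. The genotypes were compared with limma 3.58.1 (R 4.3.3; lmFit, eBayes, Benjamini-Hochberg, threshold 0.05), checked on simulated data, and 2-fold differences were counted with no test. For a signal not well above background, the fold "at least" is taken against its own value or the lowest level that array called well above background, whichever was higher. The alternatives were normexp (offset 50, on median pixel signals, since the files hold no mean), quantile and median scaling, the authors' table, filters, slide, single tumours left out and the mean over a gene's probes. The members and lists were chosen with earlier results of these data known. Named genes are all member probes, companion genes 2-fold in both tumours and those with the largest differences per list, and the 3 nearest patterns of members 2-fold in a tumour (not given for Tet1). Trdmt1, Uhrf2 and other companions with small differences were named as further members of their lists. Some genes that the rule names are not reported here.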

Additional observations from a re-analysis of the deposited data

How the results depend on the processing

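limma called 0 probes under each of the 7 alternatives it could be run on. Leaving out an LSD1 tumour, or taking slide as a block, leaves no residual degree of freedom, so these give values with no test. The counts in these settings are of the 1 LSD1 tumour that remains, not of both. Probes 2-fold higher in both LSD1 tumours numbered 1195 as reported, 669 with normexp, 486 in the authors' table, 4629 with slide as a block, and 3899 to 4629 without 1 LSD1 tumour. Those 2-fold lower numbered 2404, then 955, 3641, 5049 and 4336 to 5049 in the same settings, and 1022 over probes above background on all arrays. Probes 2-fold apart between the LSD1 tumours numbered 8238, 4531 with normexp and 4632 over probes above background on all arrays. The member count 2-fold higher in both was 2, became 1 with normexp (A_55_P2035286 stayed), 1 with quantile normalization and 1 in the authors' table (A_66_P120074 stayed in each), 3 with median scaling, which added Dnmt1, and 2 to 5 without 1 LSD1 tumour. The count 2-fold lower was 0, 1 with slide as a block and 0 to 1 without 1 LSD1 tumour.

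Of 167 recomputed single member values, 152 kept their direction, and none passed the limma threshold. Not all of them could change. The filters keep the reported differences, as does the mean over probes for Dnmt1 and Mbd4 with 1 probe each. Slide as a block gives the same values as leaving out LSD1 tumour 2. The mean difference of Dnmt3a A_55_P2178084 turned to -0.16 in the authors' table, to -0.48 with slide as a block, and ran from -0.48 to 0.74 without 1 LSD1 tumour. With slide as a block Dnmt3b A_55_P2796609 turned to -0.057 and Tet3 A_55_P2175260 to -0.12, and without 1 LSD1 tumour they ran from -0.057 to 1.80 and from -0.12 to 1.50. Mbd2 A_55_P2617784 turned to -0.23 with quantile normalization and -0.22 in the authors' table, and ran from -0.53 to 0.66 without 1 LSD1 tumour, as Mbd2 A_55_P2036526 ran from -0.24 to 0.95. Tet1 A_51_P512172 turned to 0.0016 with median scaling and Tet1 A_55_P2122997 to 0.035 with normexp, and without 1 LSD1 tumour they ran from -0.70 to 0.46 and from -1.40 to 1.04. Slide as a block keeps only LSD1 tumour 3 against the p53 tumour. The cause of the other changes was not tested. No paired analysis was possible because the groups share no replicate number.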
